A study of Homo sapiens with 8 samples.

Results

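Heat shock proteins and DNAJ co-chaperones are the folding machinery of the cell, and their transcripts were followed here in the established human melanoma line SK-MEL-5. The set comprised every gene whose single array symbol was an HSPA, HSPB, HSPD, HSPE, HSPH or HSP90 name, a DNAJA, DNAJB or DNAJC name, HSF1 or BAG3, with pseudogenes left out. This gave 71 of the 18244 genes with a probe set of their own, and no measured value entered the rule. The rule was set with earlier results of these data known. The signal minimum was 39.2, the 40th percentile of the mean array signal over all probe sets with a single symbol. Of the 71 members, 61 reached it and were tested among 11947 genes. The other 10, DNAJB7, DNAJB8, DNAJC6, DNAJC28, HSPA12B, HSPA1L, HSPA6, HSPB3, HSPB6 and HSPB9, stayed between 7.0 and 56.6 on all 8 arrays and were not tested. HSF2 and HSPB11 fit the rule but had no probe set with that symbol alone, so no value is given for them.

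The study compared 4 groups of 2 arrays each. Cells received 250 nM THZ1, a covalent CDK7 inhibitor, in 25 uM DMSO for 6 hours, or 25 uM DMSO alone for a time the labels do not state. The other cells received a non-targeting control siRNA (siCtrl) or an siRNA against MITF (siMITF), the master transcription factor of the melanocyte lineage. The labels give no harvest time for the siRNA groups, and all groups carry the same unmodified line. Separate cultures for the 2 arrays of 1 group are not stated, so the p-values below measure only the spread between these arrays, which may be technical.

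HSP70 proteins bind unfolded stretches of protein in a cycle driven by ATP. DNAJ proteins, also called HSP40 proteins, deliver clients and start ATP hydrolysis, while exchange factors such as BAG3 and the HSP110 proteins reset the cycle. HSP90 completes the folding of kinases and receptors, the HSP60 and HSP10 chaperonin folds proteins inside mitochondria, and small HSPs hold aggregating proteins. Under heat or protein damage, HSF1 trimerises and binds inverted repeats of a short GAA unit, the heat shock element, in the promoters of the inducible members.

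The promoters of these genes carry that element unevenly, and the stretches that hold it are shown because the inducible members are described together below. RefSeq promoter windows (GRCh38.p14) of 300 bases, from 250 before to 50 after each start, were found for 64 of the 71 members. Each was searched on both strands for 3 units in a row, GAANNTTCNNGAA or TTCNNGAANNTTC. A match was present in 7 of the 64 members (10.9%), against 166 of 27305 genes in the RefSeq table (0.608%). The shorter form of 2 units, GAANNTTC or TTCNNGAA, which lies within every longer match, was present in 22 members (34.4%) against 16.2% of all genes. A match is a run of letters and not evidence of binding. Capitals mark the match, and each stretch is written 5′ to 3′ on the strand of its gene.
HSPA8, chr11:123062339-123062381, minus strand: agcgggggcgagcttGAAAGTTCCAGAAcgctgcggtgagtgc
HSPA8, chr11:123062164-123062206, minus strand: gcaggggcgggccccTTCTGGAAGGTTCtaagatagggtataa
HSP90AA1, chr14:102087105-102087147, minus strand: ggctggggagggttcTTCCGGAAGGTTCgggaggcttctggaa
HSP90AB1, chr6:44247763-44247858, plus strand: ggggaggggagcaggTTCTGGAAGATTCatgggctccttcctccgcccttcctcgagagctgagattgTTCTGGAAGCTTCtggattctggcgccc
HSPA6, chr1:161524451-161524493, plus strand: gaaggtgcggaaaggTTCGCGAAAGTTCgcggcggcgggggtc
HSPD1, chr2:197500053-197500090, minus strand: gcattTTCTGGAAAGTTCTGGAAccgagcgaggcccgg
DNAJB6, chr7:157336858-157336900, plus strand: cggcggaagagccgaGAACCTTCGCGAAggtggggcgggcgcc

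The capitals of HSPD1 hold 2 overlapping matches. DNAJA1, the seventh member with a match, has it from 4 to 16 bases after its start. Of the members with a match, HSP90AB1 and DNAJB6 are not on the list of heat-inducible members used below. HSPA1A, HSPA1B and DNAJB1, the genes on which the results below turn, matched only the shorter form in these windows, and their stretches are given for comparison.
HSPA1A, chr6:31815422-31815459, plus strand: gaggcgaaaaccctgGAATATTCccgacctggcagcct
HSPA1B, chr6:31827618-31827655, plus strand: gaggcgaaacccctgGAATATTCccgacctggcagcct
DNAJB1, chr19:14518422-14518489, minus strand: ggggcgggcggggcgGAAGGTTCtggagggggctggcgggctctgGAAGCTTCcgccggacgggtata

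Signals were read on 2 scales. The per-cell scale is the deposited one, which the study's design describes as normalised to cell number, and the relative scale sets each array against its own median gene. Differences are on the log2(signal + 16) scale, which understates per-cell changes of dim genes. The relative scale removes the full offset of each array, so there the changes of dim genes can be shifted up or down instead. A gene was called at a Benjamini-Hochberg adjusted p under 0.05 from limma, over all 11947 genes. On the per-cell scale limma gave every gene the same standard error (SE), 0.25, so those p-values do not reflect the spread of the single gene, and small ones overstate the evidence. On the relative scale the median SE was 0.084. In bulk RNA, fewer cells of a kind and less RNA per cell cannot be told apart.

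The arrays of a group correlated at 0.994 to 0.995 over all genes. The 50 brightest ERCC spike-in probe sets had medians of 511 to 534.1 on the DMSO and THZ1 arrays and 253.4 to 266 on the siRNA arrays, so levels are compared only within each pair of groups. MITF, the siRNA target, measured 3436 and 3936 with siCtrl and 1747 and 1168 with siMITF, a change of -1.35 per cell (SE 0.25, adjusted p = 1.62e-06) and -0.72 relative (SE 0.10, adjusted p = 3.25e-04). All 7 melanocyte markers with a probe set were tested, and their summed signal lay between 17391 and 45081. Tested markers of other cells numbered 1 of 5 for keratinocytes, 3 of 7 for fibroblasts, 2 of 6 for leukocytes and 1 of 3 for endothelial cells. Their sums were 580 to 958 with DMSO or THZ1 and 339 to 618 with the siRNAs for keratinocytes. For fibroblasts they were 2383 to 3463 and 742 to 1875. They were 367 to 517 and 162 to 304 for leukocytes, and 128 to 191 and 78.1 to 131 for endothelial cells. On the first DMSO array KRT10 gave 494 of the keratinocyte sum of 636, and LUM gave 2067 of the fibroblast sum of 2383. KRT5, KRT14, KRT1, DSG3, COL1A1, COL1A2, COL3A1 and FAP did not reach the signal minimum. Relative to the median gene with THZ1, 3 melanocyte markers rose (MLANA 0.26, TYR 0.28, S100B 0.30) and 2 fell (SOX10 -1.16, MITF -0.27), the fibroblast-listed DCN (0.51) and LUM (0.42) rose, and the leukocyte-listed CD68 rose (0.28). With siMITF, TYR (0.36), SOX10 (0.52), S100B (0.90), DCN (0.20) and HLA-DRA (0.54) rose relative, and MITF, LUM (-0.43) and CD68 (-0.24) fell. The part of these changes in the chaperone results was not tested.

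With THZ1, HSPA1A and HSPA1B, a pair of inducible HSP70 genes, rose relative to the median gene while DNAJB1, a stress-inducible HSP40, fell. HSPA1A rose by 0.53 (SE 0.10, 1.45-fold) and HSPA1B by 0.47 (SE 0.09, 1.38-fold), and DNAJB1 fell by 0.59 on the relative log2 scale (SE 0.08, 1.51-fold lower). Among all 61 tested members, 19 rose and 13 fell on the relative scale, where 17.7% of all tested genes rose and 21.1% fell. The members' shares were 31.1% and 21.3%, so the share that fell was near the background. On the per-cell scale 5 members fell and none rose by limma, against backgrounds of 10% and 0.0753%; at an unadjusted p under 0.05, 12 were lower and 0 higher. The median member changed by -0.11 per cell (all genes -0.16) and by 0.09 relative (all genes 0.04). Without regard to the test, both THZ1 arrays lay below both DMSO arrays for 17 members and above them for 0 per cell, where 30% and 0.871% of all genes did. On the relative scale they lay below for 18 and above for 26, against 32% and 38% of all genes.

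HSPA1A and HSPA1B encode the main stress-inducible cytosolic HSP70 and are near-identical copies, so signal cannot be assigned to either one with certainty. HSPA1A measured 236 and 293 with DMSO and 280 and 402 with THZ1. HSPA1B measured 392 and 466 with DMSO and 416 and 643 with THZ1. The groups overlapped on this scale, with the second THZ1 array highest for both genes, and the per-cell changes of 0.33 and 0.27 (SE 0.25 each) were not called (adjusted p = 0.568 and 0.734). After centring, the arrays separated: HSPA1A stood at 7.76 and 7.76 log2 units with DMSO and at 8.25 and 8.34 with THZ1. The adjusted p was 0.00276 for HSPA1A and 0.00219 for HSPA1B. The second HSPA1A probe set rose by 0.57, and the pair of probe sets annotated to both genes by 0.45 and 0.59. For HSPA6, a further inducible HSP70, the dim probe set of that gene alone gave -0.04, and a probe set shared with HSPA7 read 137 and 207 with DMSO and 86.5 and 106 with THZ1 (relative -0.53). Neither HSPA6 value was tested.

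DNAJB1 measured 782 and 1002 with DMSO and 461 and 552 with THZ1. Both treated arrays lay below both controls, as they did for 30% of all genes per cell. DNAJB1 was called per cell (-0.79, SE 0.25, adjusted p = 0.0171) and on the relative scale (adjusted p = 2.75e-04). Its other probe sets changed by -0.44 and -0.41. The relative calls of HSPA1A, HSPA1B and DNAJB1 held when any 1 of the 8 arrays was left out.

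**Figure D1:**
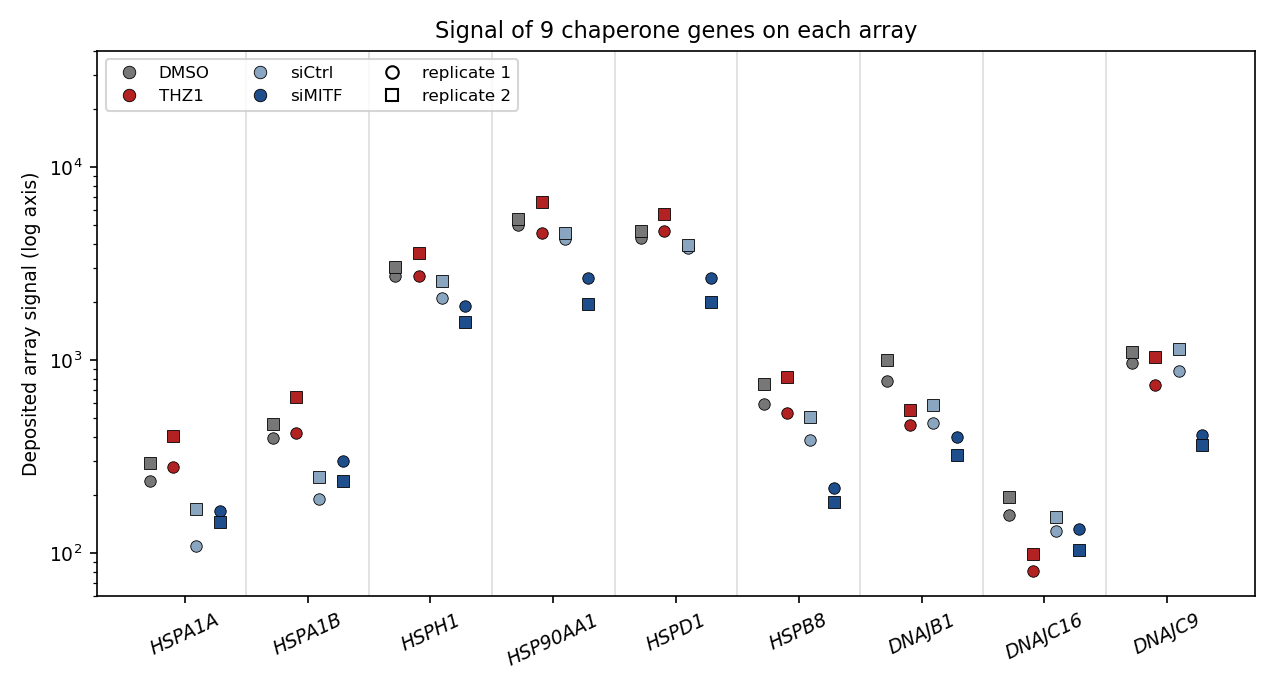
Deposited array signal (log axis) of 9 chaperone genes on each of the 8 arrays, with colour for the group and circles or squares for replicates 1 and 2. No THZ1 array reaches a DMSO array for DNAJB1 and DNAJC16, as for 30% of all genes. No siMITF array reaches a siCtrl array for DNAJC9, HSPB8, HSP90AA1, HSPD1, HSPH1 and DNAJB1, as for 89% of all genes.

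The heat-inducible members, listed from textbook knowledge with earlier results of these data known, mostly moved up on the relative scale with THZ1. Of 14 listed, 13 were tested; 9 rose and DNAJB1 alone fell, with a median of 0.28, where 17.7% of all genes rose and 21.1% fell. The 48 other tested members had 10 rises and 12 falls and a median near 0 (-8.6e-04). The inducible members that rose besides HSPA1A and HSPA1B were HSPD1 (0.41), HSPH1 (0.32), BAG3 (0.28), HSP90AA1 (0.28), HSPE1 (0.28), HSPA4L (0.25) and DNAJA1 (0.21). This count depended on the scaling: after quantile normalization, when 20.7% of all genes rose, 4 of the 13 rose, HSPA1A (0.62), HSPA1B (0.51), HSPA4L (0.36) and BAG3 (0.32), and DNAJB1 fell by 0.56. HSPD1 (0.17), HSPH1 (0.10), HSPE1 (0.07) and HSP90AA1 (0.00) were then not called, and DNAJA1 stood at -0.02. The call of DNAJA1 was also lost in each of the 8 fits that left out 1 array. With the signal minimum removed, 3 of 14 rose and DNAJB1 fell, while the share of all genes that rose dropped to 2.61%.

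Signal level moved with the same result. All tested genes were split into 4 equal groups by mean signal. The brightest group, from 409 upward, had a median relative change of 0.14 with THZ1, with 36% higher and 14.7% lower, while the next brightest had a median of -0.05. The brightest group held 25 members, with a median of 0.21. The part of brightness in the rise of the bright members was not tested. HSPA1A and HSPA1B are below that group.

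Within the HSP70 family, 4 of 11 tested members rose relative and none fell by limma (1 was lower at an unadjusted p under 0.05), beside 17.7% and 21.1% of all genes. After HSPA1A and HSPA1B came HSPA9 (0.33, SE 0.08), the mitochondrial HSP70, and HSPA4L. HSPA9 measured 3093 and 4226 with DMSO and 3402 and 4618 with THZ1, so its groups overlapped per cell. HSPA8, the abundant cytosolic HSP70 made without stress and also on the heat-inducible list, gave 0.19 (adjusted p = 0.0913) and HSPA5, the endoplasmic reticulum HSP70 known as BiP, gave 0.21 (adjusted p = 0.152). HSPA4, an HSP110-type exchange factor, gave 0.18, HSPA2 gave 0.09 and HSPA13, a microsomal ATPase, gave -0.04; none of the 3 was called. The family's median was 0.19, and 0.08 after quantile normalization, under which HSPA9 was not called (0.09) and HSPA2 was (0.21).

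The other large chaperones were measured at higher signals with little change per cell. HSPH1, the inducible HSP110, measured 2724 and 3016 with DMSO and 2715 and 3580 with THZ1 (relative adjusted p = 0.00823). HSPD1, the HSP60 chaperonin, measured 4271 and 4636 with DMSO and 4634 and 5735 with THZ1 (relative adjusted p = 0.00792). Its co-chaperonin HSPE1 reached its relative rise with 1 probe set only, and its other probe sets gave -0.12 and -0.11. HSP90AA1, the inducible cytosolic HSP90, measured 5030 and 5351 with DMSO and 4575 and 6600 with THZ1, and kept its call in 3 of 8 fits that left out 1 array. HSP90AB1, the constitutive form, gave 0.23 (adjusted p = 0.0854) and HSP90B1, the endoplasmic reticulum form GRP94, gave 0.17 (adjusted p = 0.241). The small HSPs gave no call on either scale by limma, with 1 of 4 tested higher at an unadjusted relative p under 0.05. HSPB1, or HSP27, gave 0.22 (adjusted p = 0.0632) and HSPB8, a partner of BAG3 in clearing misfolded proteins, gave 0.18.

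The DNAJ families made up most of the 61 tested members, with 4 DNAJA, 10 DNAJB and 24 DNAJC genes. The 13 relative falls and the 5 per-cell falls were all DNAJ genes, where 21.1% and 10% of all genes fell, and no test set these families against the others. DNAJC16 measured 157 and 196 with DMSO and 80.4 and 98.5 with THZ1, which is -0.86 per cell (SE 0.25, adjusted p = 0.0077) and -0.66 relative (SE 0.08, adjusted p = 1.33e-04). DNAJC14, a protein of the endoplasmic reticulum membrane, measured 600 and 723 with DMSO and 318 and 457 with THZ1 (-0.76 per cell, adjusted p = 0.0235). DNAJC30, a mitochondrial member, measured 463 and 612 with DMSO and 255 and 375 with THZ1 (-0.75 per cell, adjusted p = 0.027). In these 3 genes no treated array reached a control array, as in 30% of all genes per cell. DNAJB12, another membrane protein of the endoplasmic reticulum, measured 392 and 498 with DMSO and 238 and 299 with THZ1 (-0.69 per cell, adjusted p = 0.0475), but its 5 other probe sets gave relative changes of -0.30 to 0.01. The other probe sets of DNAJC30 gave -0.09 and, below the minimum, -0.12. The per-cell count of 5 fell to 0 without the second DMSO array or without the first THZ1 array, when 2.06% and 2.96% of all genes fell, and was 9 without the second THZ1 array, when 17.6% did.

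The relative falls of DNAJC16, DNAJB1, DNAJC14 (-0.56), DNAJC30 (-0.55), DNAJB12 (-0.49), DNAJC5 (-0.45) and DNAJC2 (-0.38) were called in all 8 fits that left out 1 array. DNAJC5, the cysteine string protein of secretory vesicles, had other probe sets at -0.59, 0.09 and -0.08, and DNAJC2 works on ribosomes with HSPA14. Falls of DNAJB5 (-0.38), DNAJB9 (-0.37), DNAJC17 (-0.34), DNAJA2 (-0.33), DNAJA3 (-0.30) and DNAJC11 (-0.23) lost their call without at least 1 array. DNAJB9, an endoplasmic reticulum co-chaperone of BiP, had a second probe set above the signal minimum that gave 0.10. DNAJC16 had a second probe set with -0.65 and a dim pair below the minimum with 0.07 and 0.15.

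Other DNAJ genes rose relative. They were DNAJC4 (0.40), the mitochondrial import factor DNAJC15 (0.38), DNAJB14 (0.32), DNAJC3 (0.32) and DNAJC10 (0.28) of the endoplasmic reticulum, DNAJB6 (0.30), which holds back aggregation, DNAJC25 (0.29), DNAJC8 (0.25), DNAJC1 (0.23) and DNAJA1. The DNAJC family thus had 7 rises and 7 falls among 24 tested members, and the DNAJB family 2 rises and 4 falls among 10. Members of the endoplasmic reticulum gave 4 rises and 3 falls of 12, and mitochondrial members 4 rises and 3 falls of 8, beside all-gene shares of 17.7% and 21.1%. DNAJB11 (0.20), DNAJB4 (0.02), DNAJC7 (0.03), DNAJC9 (-0.04) and DNAJC19 (0.04) were not called, nor was HSF1 itself, which measured 295 and 349 with DMSO and 227 and 302 with THZ1 (relative -0.08, adjusted p = 0.39). The 19 relative rises were 11 without the first DMSO array, 12 without the second DMSO array and 11 without the second THZ1 array, and the 13 falls were 7 without the first DMSO array. The share of all genes that rose was then 10.5%, 10.9% and 10.4%, and the share that fell without the first DMSO array was 16.1%.

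**Figure D2:**
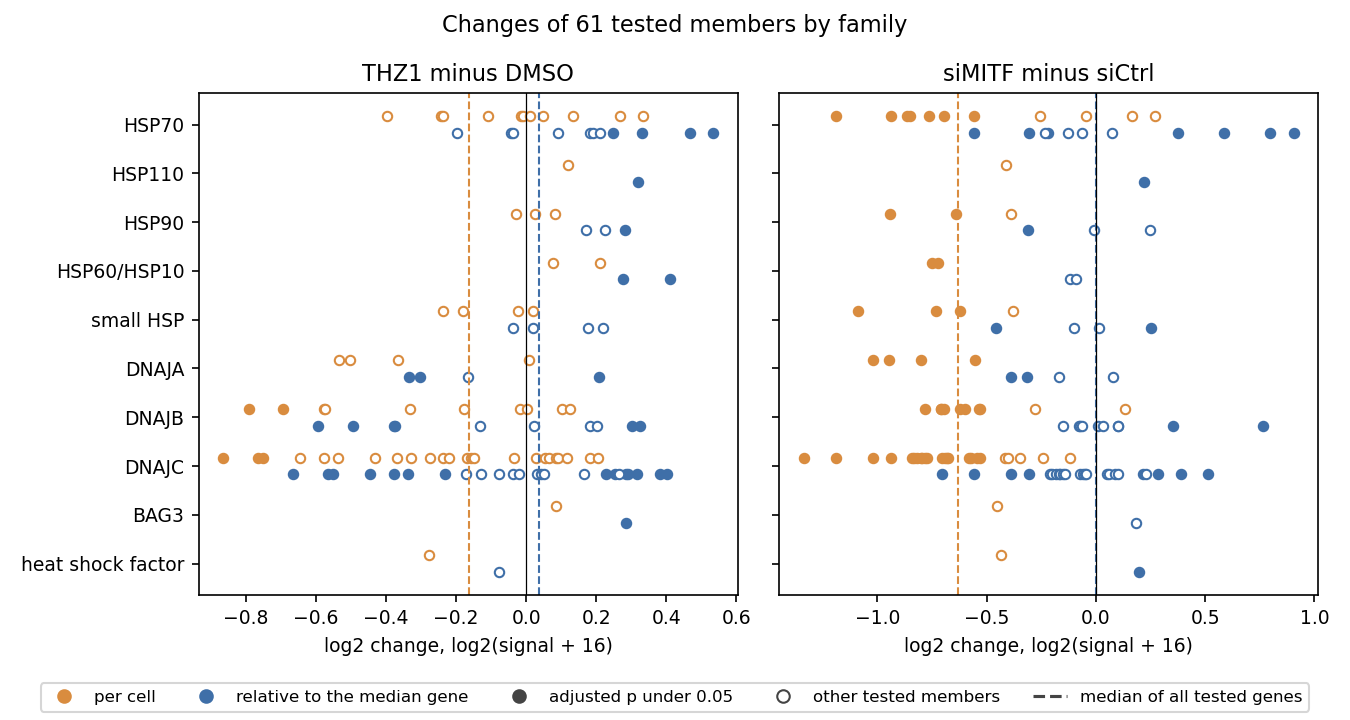
Log2 changes of the 61 tested members by family with THZ1 (left) and siMITF (right), per cell in orange and relative to the median gene in blue; filled points had an adjusted p under 0.05 and dashed lines are the medians of all tested genes. With THZ1 all 13 relative falls lie in the DNAJ families, and with siMITF 45 members are filled on the per-cell scale, all of them lower.

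With siMITF most tested members fell per cell, as did most genes on the array, and HSPA1A and HSPA1B rose relative to the median gene. Per cell 45 of 61 tested members fell and none rose by limma, where 63.4% of all genes fell and 0.326% rose; no member was higher at an unadjusted p under 0.05 either. The median member changed by -0.69 and the median gene by -0.63. On the relative scale 13 members rose and 11 fell, against 19.5% and 24.7% of all genes. The members' shares, 21.3% and 18.0%, were near that background, with medians of -0.06 and 0.00. Both siMITF arrays lay below both siCtrl arrays for 54 members and above them for 1 per cell (89% and 0.929% of all genes). On the relative scale they lay below for 26 and above for 20 (38% and 35.3%). The per-cell count was 7 without the second siCtrl array and 6 without the second siMITF array, when 14.6% and 15.3% of all genes fell.

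HSPA1A measured 109 and 168 with siCtrl and 164 and 144 with siMITF, and HSPA1B measured 191 and 246 with siCtrl and 299 and 235 with siMITF. The groups overlapped on the per-cell scale, with changes of 0.17 and 0.27 (SE 0.25 each, adjusted p = 0.524 and 0.297). With DNAJB5 (0.13) these were the members above 0 per cell. Relative to the median gene HSPA1B rose by 0.90 (SE 0.09, 1.87-fold, adjusted p = 5.52e-05) and HSPA1A by 0.80 (SE 0.10, 1.74-fold, adjusted p = 2.53e-04). The probe sets shared by both genes rose by 0.85 and 0.91, and both calls held without any 1 array and after quantile normalization (1.11 for HSPA1B and 0.89 for HSPA1A). The probe set shared by HSPA6 and HSPA7 read 70.8 and 104 with siCtrl and 46.3 and 37.2 with siMITF (relative -0.19), and the dim one of HSPA6 alone gave 0.31.

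Other members rose relative with siMITF. DNAJB5 measured 51.9 and 51.6 with siCtrl and 60.2 and 56.5 with siMITF, a relative rise of 0.77 (SE 0.11, adjusted p = 4.38e-04). Its mean signal of 50.5 put it in the dimmest of the 4 signal groups, where 33.5% of all genes rose relative and 0.971% fell. HSPA12A, a distant HSP70 relative, measured 147 and 187 with siCtrl and 183 and 141 with siMITF (relative 0.59, SE 0.08, adjusted p = 2.83e-04). DNAJB5 was higher on both siMITF arrays than on both controls, whereas HSPA12A overlapped per cell. The rest were DNAJC24 (0.52), a factor in diphthamide synthesis, DNAJC16 (0.39), HSPA5 (0.38, but -0.31 to 0.35 in its 5 other probe sets), DNAJB4 (0.35), DNAJC4 (0.29), HSPB1 (0.25), HSPH1 (0.22), DNAJC1 (0.22) and HSF1 (0.20). HSF1 measured 205 and 254 with siCtrl and 182 and 149 with siMITF, and its call held in 4 of 8 fits that left out 1 array.

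Of the 13 tested heat-inducible members, 5 rose relative with siMITF and HSP90AA1 fell, with a median of 0.10, where 19.5% of all genes rose. After quantile normalization, when 18.7% of all genes rose, 8 rose, among them DNAJB1 (0.36), BAG3 (0.41) and DNAJA1 (0.19), and HSPA8 fell (-0.29). Without the signal minimum 2 of 14 rose and 1 fell, when 13.6% of all genes rose. DNAJB1 measured 472 and 585 with siCtrl and 398 and 323 with siMITF, which is -0.53 per cell (adjusted p = 0.0478) and 0.10 relative (adjusted p = 0.309). BAG3 measured 363 and 442 with siCtrl and 331 and 252 with siMITF (relative 0.18, adjusted p = 0.0728).

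The largest relative falls with siMITF were those of DNAJC9, HSPA14, DNAJC8 and HSPB8. DNAJC9, a histone co-chaperone linked to DNA replication, measured 878 and 1141 with siCtrl and 411 and 364 with siMITF, a fall of 1.34 per cell (SE 0.25, adjusted p = 2.08e-06) and of 0.70 relative (SE 0.08, adjusted p = 1.47e-04). Its 3 other probe sets gave relative changes of 0.17 to 0.40, and the mean over its probe sets gave -0.0037. A further probe set, annotated to both DNAJC9 and MRPS16, gave -0.69. DNAJC8, linked to splicing, measured 562 and 769 with siCtrl and 309 and 253 with siMITF (relative -0.56, adjusted p = 0.00102). HSPA14, the ribosomal HSP70, measured 364 and 487 with siCtrl and 198 and 157 with siMITF (relative -0.56, adjusted p = 4e-04). HSPB8 measured 387 and 509 with siCtrl and 218 and 183 with siMITF (relative -0.46, adjusted p = 0.00245). In all 4 genes both siMITF arrays lay below both controls, as they did for 89% of all genes per cell.

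HSP90AA1 measured 4248 and 4568 with siCtrl and 2664 and 1955 with siMITF, -0.94 per cell (adjusted p = 6.71e-04) and -0.31 relative (adjusted p = 0.028), and after quantile normalization it was not called (-0.27). The other relative falls were DNAJA2 (-0.39), the endosomal DNAJC13 (-0.39), DNAJA4 (-0.31), HSPA2 (-0.31), DNAJC15 (-0.30) and HSPA9 (-0.22). All 8 mitochondrial members fell per cell, where 63.4% of all genes did. Of the 8, DNAJC15 and HSPA9 fell relative, beside 24.7% of all genes. HSPD1 (-0.12), HSPE1 (-0.09), HSPA8 (-0.06), HSPA4 (-0.23), HSP90AB1 (-0.01), HSP90B1 (0.25), DNAJA1 (0.08) and DNAJB6 (-0.07) were not called on the relative scale.

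Signal level moved with the siMITF result as well. Over all genes the median relative change ran from 0.19 in the dimmest of the 4 signal groups to -0.22 in the brightest, where 49.1% of genes fell, and the 25 members in the brightest group had a median of -0.08. In the dimmest group, which holds DNAJB5, 33.5% of genes rose and 0.971% fell. The part of signal level in the falls of bright members and the rises of dim ones was not tested. The 13 relative rises were 8 without the first siCtrl array, 6 without the second siCtrl array, 7 without the first siMITF array and 8 without the second siMITF array, and the 11 falls were 7 without the second siMITF array. All-gene shares were then 16.4%, 13%, 13.7% and 11.3% higher and 15.9% lower.

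The THZ1 change was then set against the siMITF change of the same gene in 1 test, which joins groups that were not randomised together. On the relative scale 17 of 61 members had a higher change with THZ1 and 12 a lower one, where 21.4% and 20.2% of all genes did. On the per-cell scale 7 were higher and none lower by limma, with 1 lower at an unadjusted p under 0.05, against 9.84% and 0.946% of all genes. Those 7 were DNAJC8 (1.24), DNAJC15 (1.12), DNAJC9 (1.10), HSPB8 (1.07), HSP90AA1 (1.03), DNAJC13 (0.99) and HSPA9 (0.98), each with an SE of 0.35. The count was 0 without the first DMSO, the second THZ1, the second siCtrl or the second siMITF array, 20 without the first THZ1 array, 4 without the first siCtrl array, and 0 after scaling to the ERCC median. The all-gene shares were then 0.427%, 1.16%, 0.31%, 0.293%, 31.9%, 8.53% and 0.285%, in the same order.

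On the relative scale the largest differences on the lower side were DNAJB5 (-1.14, SE 0.15), DNAJC16 (-1.05, SE 0.11), DNAJB1 (-0.69, SE 0.11), DNAJC14 (-0.65) and HSPA12A (-0.63). DNAJC16 thus fell with THZ1 and rose with siMITF on this scale, with an adjusted p of 9.07e-05 for the difference. Per cell its siRNA groups overlapped, at 130 and 153 with siCtrl and 132 and 103 with siMITF. HSPA1B rose less with THZ1 than with siMITF (-0.44, adjusted p = 0.0147), and the same difference for its near-identical copy HSPA1A was -0.26 (SE 0.14, adjusted p = 0.169). The largest on the higher side were DNAJC8 (0.81), DNAJC15 (0.69), DNAJC9 (0.67), HSPB8 (0.63) and HSP90AA1 (0.59). The siMITF fall of DNAJC9 was not shared by its other probe sets with that symbol alone.

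**Figure D3:**
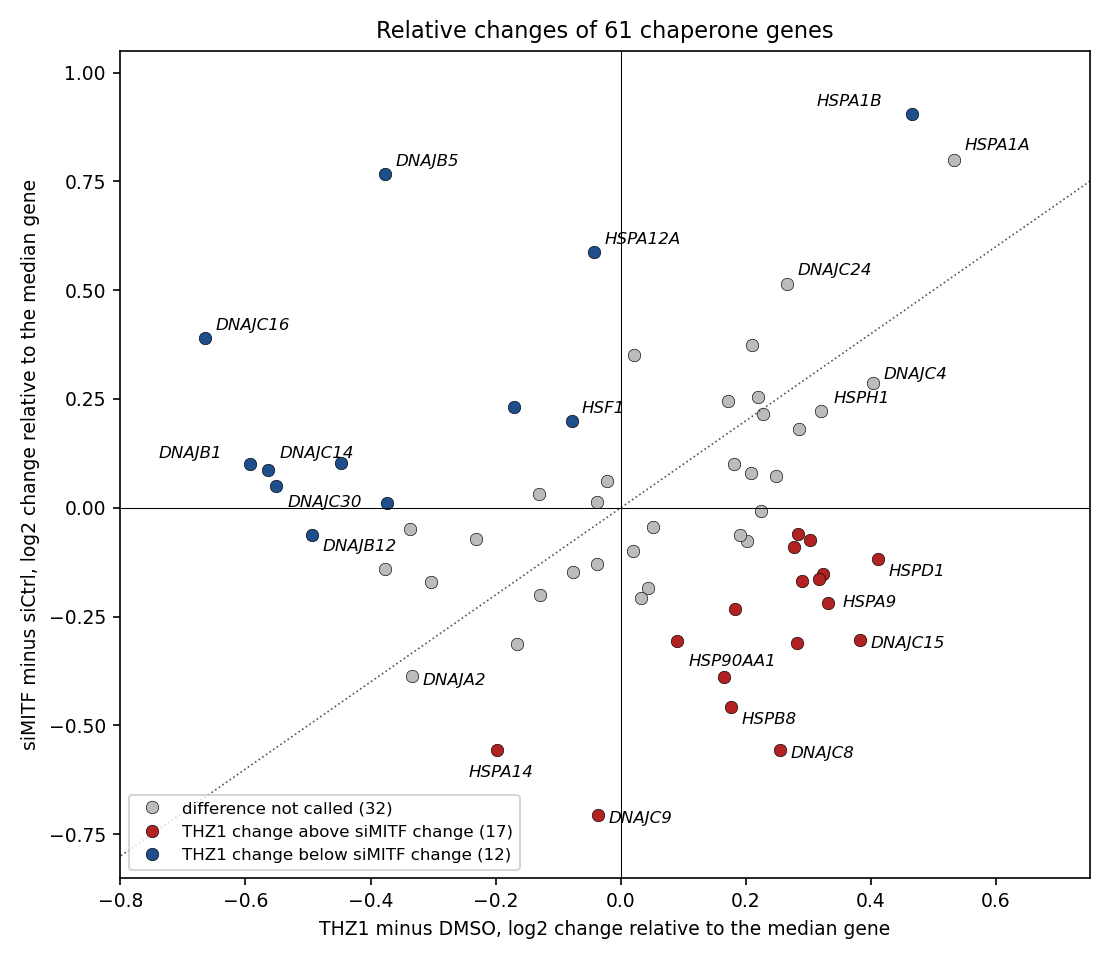
Relative log2 change of the 61 tested members with THZ1 (horizontal) against siMITF (vertical); red points (17) had a higher and blue points (12) a lower change with THZ1 by the test of the difference, grey points (32) neither, and the dotted line marks equal changes. HSPA1A and HSPA1B lie at the upper right, DNAJC16, DNAJB1 and DNAJB5 at the upper left and DNAJC8, DNAJC15 and HSPB8 at the lower right.

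Several members had probe sets that disagreed, out of 206 probe sets in all. HSPA8 had 7. Its brightest gave 0.19 with THZ1 and -0.06 with siMITF, while a probe set that read 387 and 268 with DMSO read 141 and 53.2 with THZ1 (-1.50), and 347 and 310 with siCtrl against 95.0 and 50.03 with siMITF (-1.37). A HSPA14 probe set that read 239 and 276 with DMSO read 92 and 95.7 with THZ1 (-1.11), against -0.20 for the brightest. For HSPA4, 1 probe set gave -1.13 with siMITF against -0.23 for the brightest, and HSPA9 had one at -0.73 against -0.22. HSPA13 gave 0.30 to 0.33 with THZ1 in its 3 other probe sets. HSPH1 gave rises of 0.17 to 0.46 with THZ1 in all 8 of its probe sets. Which transcripts these probe sets read is not given in the sources used here.

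**Figure D4:**
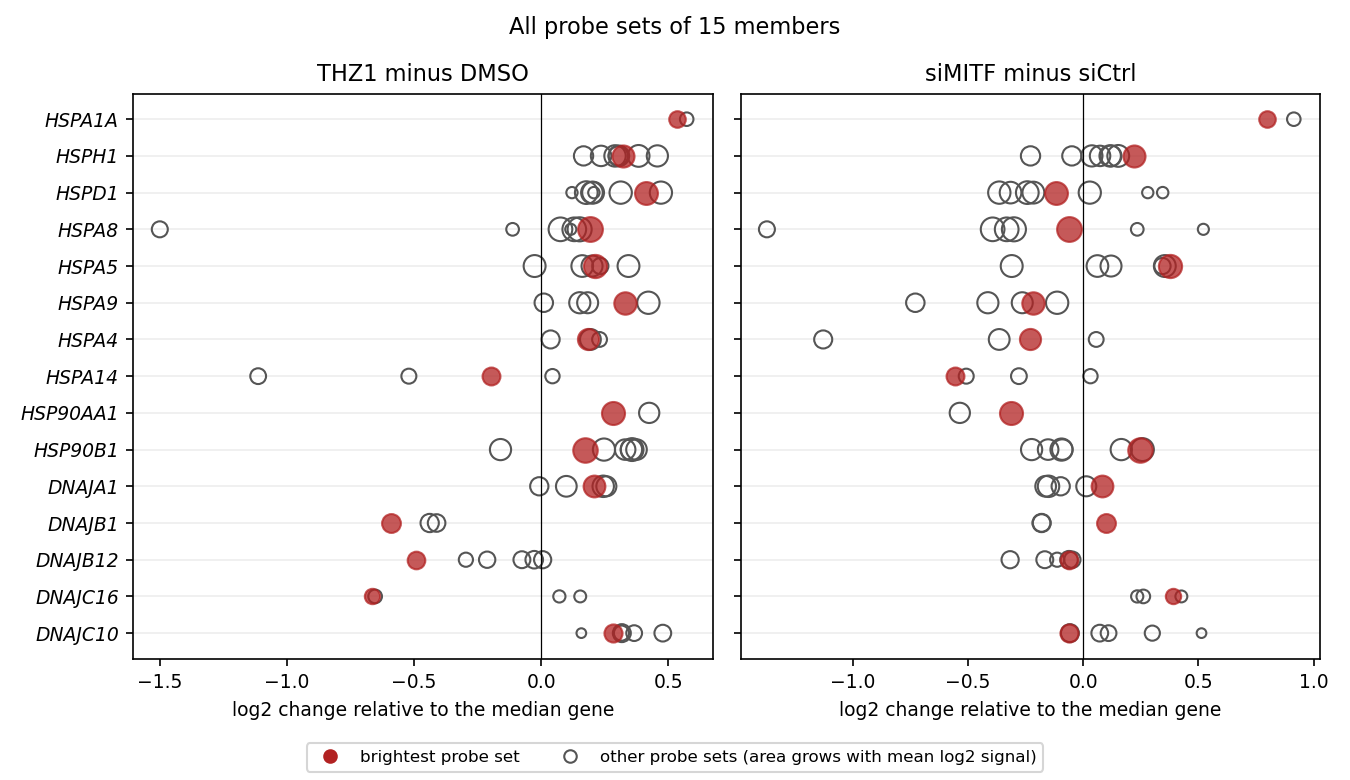
Relative log2 change of every probe set of 15 members with THZ1 (left) and siMITF (right); red points are the brightest probe set, open points the others, with area growing with mean log2 signal. The HSPA1A and HSPH1 probe sets lie together with THZ1, while single HSPA8 and HSPA14 probe sets lie below -1.

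The wider folding pathway, 51 co-chaperones, chaperonin subunits and proteases listed by function, had 49 tested genes. With THZ1 18 rose and 4 fell relative, with a median of 0.15, where 17.7% of all genes rose, 21.1% fell and the median was 0.04. The rises were led by the prefoldin subunit PFDN5 (0.44), the kinase adaptor of HSP90 CDC37 (0.40), the TRiC chaperonin subunit CCT4 (0.38), the HSP70 cofactor ST13 (0.37) and HSBP1 (0.37), a binding protein of HSF1. The falls were BAG5 (-0.73), an HSP70 exchange factor, the iron-sulphur co-chaperone HSCB (-0.33), the mitochondrial unfoldase CLPX (-0.32) and the collagen chaperone SERPINH1 (-0.31). BAG5 alone fell per cell (-0.93, adjusted p = 0.00337). TRiC and prefoldin, which fold cytoskeletal proteins, had 8 rises and no falls among 14 subunits relative, and none changed per cell by limma or at an unadjusted p under 0.05.

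With siMITF falls outnumbered rises in this list on the relative scale. Here 17 fell and 5 rose, where 24.7% and 19.5% of all genes did, led by VBP1 (-0.62), PPP5C (-0.57), BAG2 (-0.56) and GRPEL2 (-0.52) among the falls and CHORDC1 (0.41) and HYOU1 (0.38), an endoplasmic reticulum HSP110, among the rises. Per cell 41 fell, where 63.4% of all genes did, and none rose by limma or at an unadjusted p under 0.05. The difference between the THZ1 and siMITF changes was higher for 24 and lower for 2 on the relative scale, where 21.4% and 20.2% of all genes were.

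Across the 8 arrays, centred on each array's median gene, the members most like HSPA1A were HSPA1B (Pearson r of 0.98), DNAJC4 (0.92) and HSPB1 (0.86). Those most like DNAJB1 were DNAJC14 (0.93), DNAJC30 (0.92) and DNAJB9 (0.86). Outside the set, SND1 (0.99), GALNT2 (0.99) and MARCKSL1 (0.98) were most like HSPA1A, and STK40 (0.99), RBM7 (0.98) and SFT2D3 (0.98) most like DNAJB1. These are descriptions over 4 pairs of arrays that share their group means and the separate scaling of the DMSO and siRNA arrays.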

How the data were processed

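RNA of SK-MEL-5 cells, with ERCC spike-in added in proportion to cell number and 100 ng RNA per array, was hybridised to Affymetrix 3′ arrays, per the labels' protocols. The deposited values are linear array intensity, made by the authors with MAS5 per the submitters' processing notes (version not given in the sources used here) and described as normalised to cell number in the series' design. Probe sets with 1 symbol were kept (45278 of 49495; 1333 had several and 2682 none), and each gene took its brightest. Genes whose brightest probe set lay under the 40th percentile of mean signal over all kept probe sets were left out. limma 3.58.1 in R 4.3.3 fitted log2(signal + 16) with 1 mean per group over all 8 arrays, on the deposited scale and after centring each array on the median deviation of the tested genes, and was tested on simulated data. The number of arrays, 2 per group, limits the precision.

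The members and lists were chosen with earlier results of these data known. Values are given for a fixed set of members, for every member called per cell with THZ1 or in the difference, for the largest called relative changes in each family and for the 5 largest differences each way. Other called members are listed so that each count is complete. Replicate numbers recur across groups. Gene deviations correlated at 0.112 (DMSO and THZ1) and -0.184 (siCtrl and siMITF), which leaves out any offset shared by a whole array. Array offsets of replicates 1 and 2 were 0.214 and 0.515 with DMSO and -0.0365 and 0.367 with THZ1. With siCtrl they were -0.0615 and 0.189, and with siMITF -0.43 and -0.708. The correlations thus cannot decide on pairing per cell, and the main fits did not assume it. Promoter windows came from RefSeq, GRCh38.p14. Alternatives were other pseudocounts, signal minimums, probe set summaries, scalings, variance estimates, the replicate block and leaving out each array.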

Additional observations from a re-analysis of the deposited data

How the results depend on the processing

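With the replicate number as a block, THZ1 gave 6 members lower per cell, and 12 lower and 17 higher relative; siMITF gave 45, 10 and 11; the difference gave 13 members higher per cell in place of 7, and 11 lower and 16 higher relative. With the siMITF numbers crossed, an alternative chosen after seeing the data, siMITF gave 57 members called per cell in place of 45. Of these 57, 1 was higher. The difference then gave 2 lower and 40 higher per cell. With each gene's own variance, per-cell counts were 0 lower with THZ1, 0 lower with siMITF and 0 higher in the difference, where 0 of all 11947 genes were called either; relative counts were 7 lower and 12 higher with THZ1, 7 higher with siMITF and 11 higher in the difference. ERCC scaling left 0 per cell with THZ1 and 0 higher in the difference (all genes 4.39% and 0.285%). The THZ1 per-cell count was 3 with the mean of probe sets and 2 with only the arrays compared. Without the signal minimum the relative counts were 4 higher with THZ1, 22 lower with siMITF and 7 lower in the difference, where the all-gene shares were 2.61%, 22.2% and 8.21%. A pseudocount of 64 gave 22 lower with siMITF relative and 11 higher in the per-cell difference, and a pseudocount of 1 gave 4. Where no all-gene share is given beside a count, it does not separate a change of the members from one over all genes. The cause was not tested.

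Leaving out each array in turn, THZ1 counts ran from 0 to 9 lower per cell, 7 to 13 lower and 11 to 17 higher relative. The siMITF counts ran from 6 to 45 lower per cell, 7 to 11 lower and 6 to 14 higher relative. The difference ran from 0 to 20 higher per cell, 9 to 12 lower and 12 to 17 higher relative. Among named members the direction turned for DNAJA1 with THZ1 after quantile normalization (-0.017), and with the mean of probe sets for HSPA13 (0.20) and HSPE1 (-0.0079) with THZ1 and for HSPA14 in the difference (-0.11), all relative. The count ranges above carry no all-gene share. The share called among all genes also moved with the array left out, as given with the results for several fits. The ranges thus do not separate a change of the members from a change over all genes. Signal near background limits the 10 untested members.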
